A study of Mus musculus with 33 samples.

Results

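The 5 microRNAs (miRNAs) described here are mmu-miR-23a, mmu-miR-23b, mmu-miR-27a, mmu-miR-27b and mmu-miR-24 (below without the species prefix), the mature products of a pair of paralogous gene clusters. They were taken by name, without the starred opposite arms, from the 611 mouse miRNA names on the array, and all 5 were present. Lungs came from female C57BL/6 mice given Printex 90, a carbon black nanoparticle, at 0.162 mg, or its vehicle, and killed 1, 3 or 28 days later; the title of the study describes the animals as non-pregnant and the route as intratracheal instillation. The vehicle that every mouse received was MilliQ water with 0.9% NaCl and, by volume, 10% acellular bronchoalveolar lavage (BAL) fluid, and the 3 control groups received it alone, so no group was untreated. The small-RNA-enriched total RNA was read in 1 colour (Cy3) on 33 Agilent miRNA arrays, 1 mouse each per the study's design text. The controls comprised 6 arrays at each day, and the exposed mice 6 arrays at day 1, 4 at day 3 and 5 at day 28. The labels give no ages.

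A miRNA guides the silencing complex to messenger RNAs that pair with its seed, bases 2 to 8 from the 5′ end, and lowers their output. The miR-23a cluster (miR-23a, miR-27a and a copy of miR-24) and the miR-23b cluster (miR-23b, miR-27b and the other copy of miR-24) are each transcribed as 1 primary RNA and arose by duplication. Both clusters are known in endothelial cells and vessel growth, miR-27 for its targets in lipid metabolism and adipocyte differentiation, and miR-24 for its targets in the cell cycle. In whole lung, fewer cells of a type and less of a miRNA per cell cannot be told apart.

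Mature sequences were matched in the RefSeq miRNA table (GRCm38.p6) for 4 of the 5 miRNAs and are shown because they set which members the array can tell apart. Seeds are in capitals, and every sequence lies on the + strand. miR-27a and miR-27b share their seed, and miR-24 is the same molecule from either locus.
miR-23a (chr8:84208563-84208583): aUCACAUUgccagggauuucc
miR-27a (chr8:84208727-84208747): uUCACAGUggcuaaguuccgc
miR-27b (chr13:63300760-63300780): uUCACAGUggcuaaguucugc
miR-24 (chr8:84208875-84208896 and chr13:63301251-63301272): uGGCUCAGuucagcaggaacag
Over their 21 bases miR-27a and miR-27b differed at 1 position counted from the 5′ end of miR-27a, C19U, outside the seed. How much of the signal of 1 paralogue reached the probes of the other was not tested. The 3 hairpins of the miR-23a cluster (Mir23a, Mir27a and Mir24-2) span 404 bases, chr8:84208518-84208921. Those of the miR-23b cluster (Mir23b, Mir27b and Mir24-1) span 792 bases, chr13:63300484-63301275, and overlap the annotated gene Aopep. Neighbouring hairpins were separated by 79 and 56 bases in the first cluster and by 154 and 423 bases in the other.

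On the array as a whole, 99 to 193 mouse miRNAs were above background per array, and 171 miRNAs were tested. Array brightness, taken as the 75th percentile of the probes detected on all arrays before scaling, averaged 472 ± 288 signal units (SD, n = 6) in the day 1 controls and 956 ± 215 (n = 6) in the day 28 controls, the dimmest and brightest groups. The exposed groups lay between, at 654 ± 95.6 at day 1 (n = 6), 628 ± 117 at day 3 (n = 4) and 653 ± 285 at day 28 (n = 5). The 4 arrays of 1 slide (slide 1, with 1 control and 1 exposed array at each of days 1 and 3) stood apart from the other 8 slides on the first principal component, which held 32.7% of the variance; they are replicate 1 of the day 1 controls, replicate 2 of the day 3 controls, replicate 3 of the exposed mice of day 1 and replicate 4 of those of day 3. On every slide the exposed and control arrays held different positions, and the effects of position and exposure cannot be told apart. Day 1 and day 28 arrays also held different positions, among the controls and among the exposed mice. The effects of position and time cannot be told apart between those days. Markers fitted the lung label in part: miR-126-3p, abundant in endothelial cells, gave a log2 signal of 12.03 to 12.97 on all 33 arrays, all 5 epithelial miRNAs of the miR-200 family were above background on all 33, and the brain miRNAs miR-124 and miR-9 were above background on 0. Other markers went against it: miR-1 of heart and skeletal muscle was above background on 31 arrays, with a log2 signal up to 9.51. The other markers of that list, miR-133a and miR-133b, were so on 10 and 16 arrays, and miR-122 of liver on 21, up to 7.18. Of the smooth muscle markers, miR-143 was above background on all 33 arrays (mean log2 signal 7.22) and miR-145 on 1. miR-150 of lymphocytes was above background on 2.

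None of the 5 miRNAs passed the test for a change after carbon black at any day. Of the 5, 0 were called at day 1, day 3 or day 28 (limma, Benjamini-Hochberg adjusted p under 0.05), against 0% of the 171 miRNAs tested in each of these comparisons. At an unadjusted p under 0.05, 1 of the 5 (miR-23b at day 1, lower) passed, against 15 of 171 at day 1, 2 at day 3 and 13 at day 28. Their median log2 change was -0.11 at day 1, 0.011 at day 3 and -0.097 at day 28, beside -0.094, -0.036 and -0.035 over all 171. Exposed and control arrays overlapped for all 5 miRNAs at every day, where 0.585%, 0% and 1.75% of the 171 miRNAs did not overlap at days 1, 3 and 28.

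**Figure D1:**
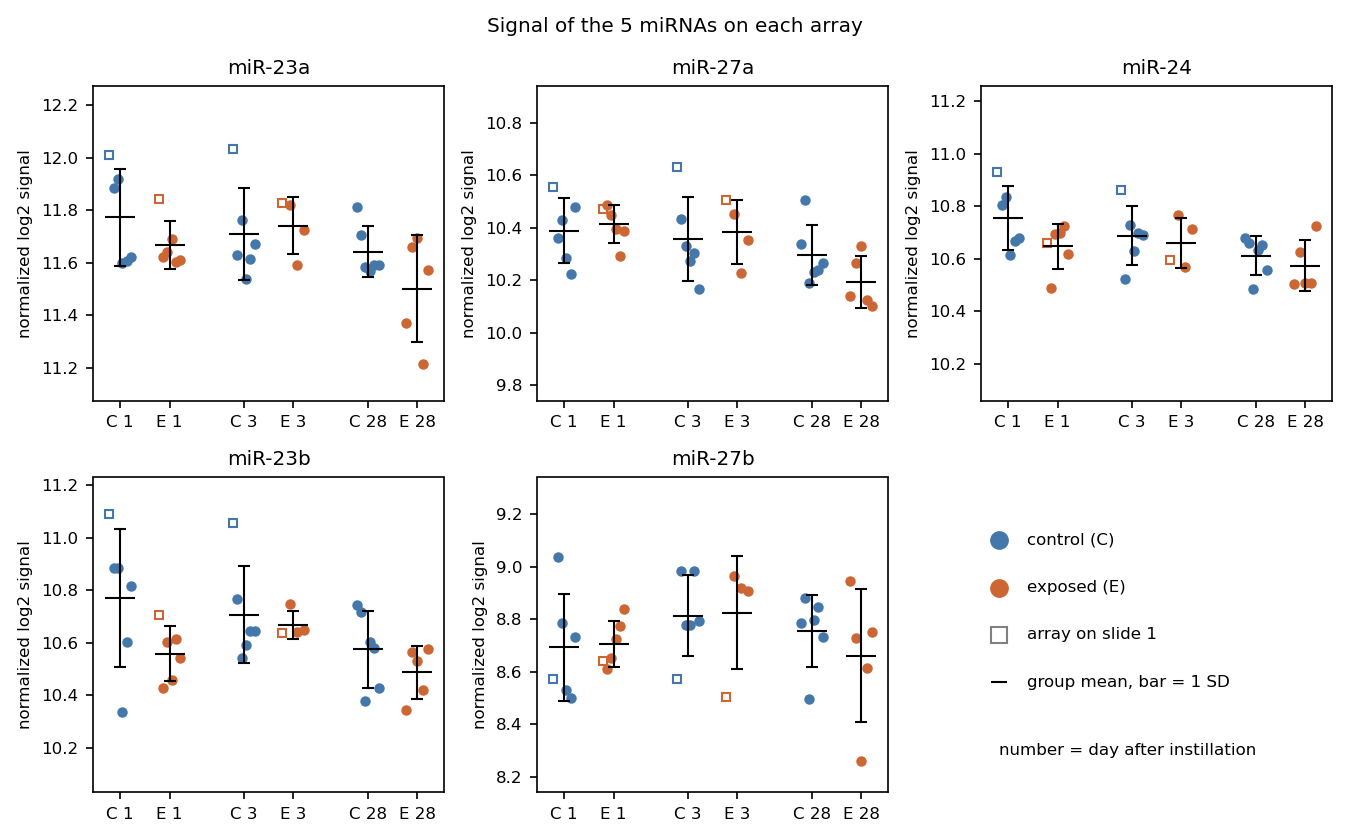
Normalized log2 signal of the 5 miRNAs on each of the 33 arrays, by group (C control, E exposed, followed by the day), with the group mean and 1 SD; open squares are the 4 arrays of slide 1. Each panel has its own vertical range of equal length, and for every miRNA the points of exposed and control mice overlap at each day, as for miR-23a at day 1 (11.60 to 11.84 exposed, 11.60 to 12.01 control).

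miR-23a, whose targets include regulators of vessel growth and of muscle mass, was measured above background on all 33 arrays by 2 probes, as were the other 4 miRNAs. Values are log2 of the array-scaled signal of the brighter probe, and since probes bind with different strength, no level is set against that of another miRNA. In the day 1 controls miR-23a ran from 11.60 through a median of 11.75 to 12.01, and in the exposed mice of day 1 from 11.60 through 11.63 to 11.84. The controls split into 3 arrays near 11.6 and 3 at 11.88 or above, while 5 of the 6 exposed arrays lay at 11.69 or below. The change was -0.11 ± 0.090 (SE; 6 against 6; adjusted p = 0.636, limma). At day 3 the controls ran from 11.54 through 11.65 to 12.03, and the exposed arrays gave 11.59, 11.73, 11.82 and 11.83. All 4 lay inside the range of the controls, whose top value came from slide 1, and the change was 0.033 ± 0.10 (adjusted p = 0.996, limma). At day 28 the controls ran from 11.57 through 11.59 to 11.81, and the exposed arrays gave 11.22, 11.37, 11.57, 11.66 and 11.69. The lowest 2 of these lay under every control and the other 3 inside the controls, with a change of -0.14 ± 0.094 (adjusted p = 0.859, limma).

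miR-27a, the middle member of the same cluster, ran in the day 1 controls from 10.22 through 10.39 to 10.55 and in the exposed mice of day 1 from 10.29 through 10.42 to 10.49. The exposed arrays lay wholly inside the range of the controls, and the log2 change was 0.025 ± 0.075 (adjusted p = 0.863, limma). At day 3 the controls ran from 10.17 through 10.32 to 10.63 and the exposed arrays gave 10.23, 10.35, 10.45 and 10.50, again inside the controls (0.027 ± 0.084, adjusted p = 0.996, limma). The day 28 controls ran from 10.19 through 10.25 to 10.51, against exposed values of 10.10, 10.13, 10.14, 10.26 and 10.33. Here 3 of the 5 exposed arrays lay under the lowest control, and the change was -0.10 ± 0.079 (adjusted p = 0.928, limma).

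For miR-23b, the paralogue of miR-23a in the other cluster, the day 1 controls ran from 10.34 through 10.85 to 11.09 and the exposed arrays from 10.43 through 10.57 to 10.71. The controls had the widest spread of any group for this miRNA (SD 0.26, n = 6, against 0.11 in the exposed mice), with 4 of 6 controls above every exposed array and 1 below all of them. The log2 change was -0.21 ± 0.098, or a fold of 0.864 (95% interval 0.752 to 0.992). It did not pass correction over the 171 miRNAs (unadjusted p = 0.0389 and adjusted p = 0.495, limma). The median of all 171 miRNAs in the same comparison was -0.094, and the day 1 controls were also the dimmest arrays; the part of brightness in this difference was not tested. Paired by slide, the exposed array was lower on 4 of 6 slides, with differences from -0.46 to 0.12, and with slide as a fixed block the change stayed at -0.21 (adjusted p = 0.149, limma). Without slide 1 it was -0.18 (adjusted p = 0.503, limma). With the arrays scaled to the 75th percentile of all probes it was -0.025, and with no scaling its sign turned, at 0.45, where the median of all tested miRNAs moved to 0.57. Over all the alternatives and single arrays left out, its adjusted p ran from 0.130 to 0.999.

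At day 3, miR-23b ran in the controls from 10.54 through 10.65 to 11.06, and the 4 exposed arrays gave 10.64, 10.64, 10.65 and 10.75. These sat closely together inside the controls (-0.039 ± 0.11, adjusted p = 0.996, limma). The day 28 controls ran from 10.38 through 10.59 to 10.74 and the exposed arrays gave 10.35, 10.42, 10.53, 10.56 and 10.58. Only 1 exposed array was below the lowest control, and the change was -0.086 ± 0.10 (adjusted p = 0.952, limma).

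miR-27b, the middle member of the miR-23b cluster, ran in the day 1 controls from 8.50 through 8.65 to 9.04 and in the exposed mice of day 1 from 8.61 through 8.69 to 8.84. The exposed arrays lay inside the controls, with a log2 change of 0.014 ± 0.11 (adjusted p = 0.948, limma). At day 3 the controls ran from 8.57 through 8.78 to 8.98, and the exposed arrays gave 8.51, 8.91, 8.92 and 8.97. The low value at 8.51 and the lowest control were both slide 1 arrays, and the change was 0.011 ± 0.12 (adjusted p = 0.996, limma). The day 28 controls ran from 8.50 through 8.79 to 8.88, beside exposed values of 8.26, 8.62, 8.73, 8.75 and 8.95 that spread to both sides of them (-0.097 ± 0.11, adjusted p = 0.939, limma).

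miR-24, made by both clusters and so a sum over the pair, ran in the day 1 controls from 10.61 through 10.74 to 10.93 and in the exposed mice of day 1 from 10.49 through 10.68 to 10.72. Of the 6 controls, 3 lay above every exposed array, and the log2 change was -0.11 ± 0.066 (adjusted p = 0.507, limma). At day 3 the controls ran from 10.52 through 10.70 to 10.86, and the exposed arrays gave 10.57, 10.59, 10.71 and 10.77, all inside them (-0.027 ± 0.074, adjusted p = 0.996, limma). The day 28 controls ran from 10.49 through 10.64 to 10.68 and the exposed arrays gave 10.50, 10.51, 10.51, 10.62 and 10.72, so the ranges almost coincided (-0.037 ± 0.070, adjusted p = 0.986, limma).

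**Figure D2:**
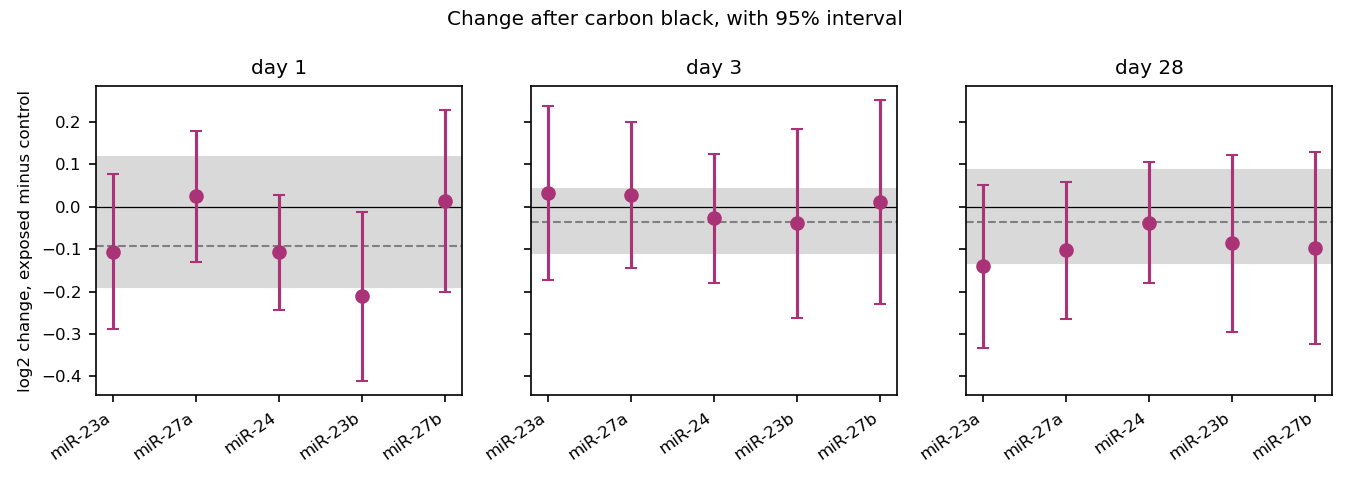
Log2 change, exposed minus control, of the 5 miRNAs at days 1, 3 and 28, with 95% intervals from limma before correction for multiple testing; the dashed line is the median and the grey band the middle 50 percent of all 171 miRNAs tested. Only the interval of miR-23b at day 1 (-0.41 to -0.012) leaves out 0, and its adjusted p was 0.495.

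On the brighter probes and under the chosen scaling, the 95% intervals at day 1 of the log2 change ran from -0.29 to 0.077 for miR-23a, -0.13 to 0.18 for miR-27a, -0.20 to 0.23 for miR-27b and -0.24 to 0.029 for miR-24. At day 3, with 4 exposed arrays, they were widest for miR-27b (-0.23 to 0.25) and miR-23b (-0.26 to 0.18). At day 28 the lowest bound was -0.33, for miR-23a, and the highest 0.13, for miR-27b. As folds, these 15 brighter-probe intervals lay between 0.752 and 1.19. The dimmer probes gave other limits, with the widest log2 intervals for miR-27b. These were 0.068 to 1.04 at day 1, -0.32 to 0.77 at day 3 and -0.50 to 0.52 at day 28. For miR-23a at day 3 the dimmer probe gave -0.0071 to 0.47.

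Averaged over the 3 days on the brighter probes, the change lay between -0.11 (miR-23b, SE 0.060, adjusted p = 0.489, limma) and -0.017 (miR-27a, SE 0.046, adjusted p = 0.920, limma). On these probes 0 of the 5 were called, against 0.585% of the 171. The dimmer probe of miR-23a gave 0.13 ± 0.064 (unadjusted p = 0.0435, adjusted p = 0.354, limma). Those of miR-23b, miR-24, miR-27a and miR-27b gave -0.10 ± 0.073, 0.038 ± 0.057, 0.055 ± 0.068 and 0.26 ± 0.15. No interaction term passed for a member: 0 of the 5 were called for day 3 against day 1, day 28 against day 1 or day 28 against day 3, as were 0% of the 171 in each. With no scaling between arrays, all 5 were called for day 28 against day 1, as 69.6% of the 171 were. On the brighter probes the day 28 change minus the day 3 change was below 0 for all 5, from -0.17 ± 0.14 (miR-23a) to -0.010 ± 0.10 (miR-24). The adjusted p was 0.999 for each (limma). Over all 171 miRNAs 89 were below 0, with a median of -0.013, and the dimmer probe of miR-23b gave 0.023 ± 0.18.

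In the vehicle lungs the miRNAs were compared over time. The day 1 controls all held the same array position and the day 28 controls all another, so time and position cannot be told apart. From day 1 to day 28 miR-23a differed by -0.13 ± 0.090, miR-23b by -0.20 ± 0.098, miR-24 by -0.14 ± 0.066, miR-27a by -0.094 ± 0.075 and miR-27b by 0.064 ± 0.11 on the log2 scale. None of the 5 was called (adjusted p from 0.193 for miR-24 to 0.700 for miR-27b, limma), against 6.43% of the 171, whose median difference was -0.17. Without replicate 17 of the day 1 controls, the array with the lowest miR-23a, miR-23b and miR-24 of that group, the miR-23b difference was -0.28 and passed the threshold (adjusted p = 0.0416, limma), where 12.3% of the 171 were called. With no scaling between arrays all 5 passed as higher, by 0.99 to 1.25, as 83% of the 171 were called, beside a median of 1.02 over all 171 miRNAs and an array brightness of 472 against 956 units. From day 1 to day 3 the differences were between -0.066 and -0.032 for 4 members and 0.12 ± 0.11 for miR-27b, with an adjusted p of 0.935 for each (limma) and 0% of the 171 called.

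Ordered by group mean, miR-23a ran from 11.77 ± 0.18 in the day 1 controls (SD, n = 6) down to 11.50 ± 0.20 in the exposed mice of day 28 (n = 5). The same groups were highest and lowest for miR-23b (10.77 ± 0.26 and 10.49 ± 0.10) and for miR-24 (10.75 ± 0.12 and 10.57 ± 0.098). For miR-27a the order ran from the exposed mice of day 1 (10.41 ± 0.072) to those of day 28 (10.19 ± 0.099), and for miR-27b from the exposed mice of day 3 (8.82 ± 0.21, n = 4) to those of day 28 (8.66 ± 0.25). On these brighter probes the exposed mice of day 28 were thus last in all 5 orders. In each of these orders, neighbouring groups differed by less than the SD of at least 1 of them. On the dimmer probes exposed mice of day 28 were last only for miR-23b (8.57, beside 8.58 in those of day 1) and miR-27a (8.83). The day 1 controls were then lowest for miR-23a (9.77 against 9.84 at exposed day 28) and miR-27b (5.14 against 5.39). For miR-24 the day 3 controls were lowest (9.87 against 9.93). How often this group came last among all tested miRNAs was not tested.

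The within-array difference between the a and b members tests whether the clusters shifted against each other, since the scaling of an array cancels in it. For miR-23a minus miR-23b, the day 1 controls ran from 0.80 through 1.00 to 1.26 and the exposed arrays from 0.99 through 1.10 to 1.23. The group means were 1.00 ± 0.15 and 1.11 ± 0.095 (SD, n = 6 each), and the difference of 0.11 had an interval from -0.055 to 0.26 (two-sided exact permutation test, p = 0.177, adjusted p over the 6 pair tests 0.974). At day 3 the exposed mean of 1.07 ± 0.097 (n = 4) stood beside 1.00 ± 0.12 (n = 6), a difference of 0.072 (interval -0.11 to 0.225; exact permutation p = 0.338, adjusted p = 0.974). At day 28 it was 1.01 ± 0.14 (n = 5) against 1.07 ± 0.098 (n = 6), or -0.054 (interval -0.215 to 0.10; exact permutation p = 0.487, adjusted p = 0.974). Exposed and control arrays overlapped at each day.

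For miR-27a minus miR-27b the group means of exposed and control mice were closer still. They were 1.71 ± 0.15 and 1.70 ± 0.22 at day 1, a difference of 0.011 (interval -0.21 to 0.25; n = 6 each, exact permutation p = 0.933, adjusted p = 0.978). At day 3 they were 1.56 ± 0.30 (n = 4) and 1.54 ± 0.27 (n = 6), or 0.016 (interval -0.40 to 0.445; exact permutation p = 0.929, adjusted p = 0.978). The 2 slide 1 arrays gave the highest value of each day 3 group, 2.00 exposed and 2.06 control. At day 28 the means were 1.53 ± 0.33 (n = 5) and 1.54 ± 0.11 (n = 6), or -0.0059 (interval -0.28 to 0.315; exact permutation p = 0.978, adjusted p = 0.978). The smallest p these designs allow is 0.00216 at day 1, 0.00952 at day 3 and 0.00433 at day 28.

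**Figure D3:**
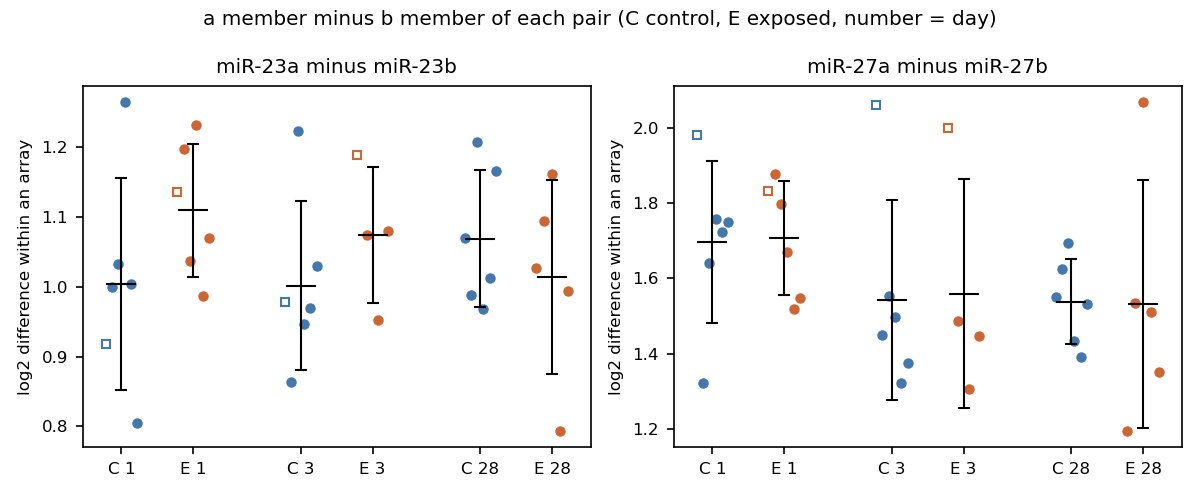
Within-array log2 difference between the a and the b member of each pair, by group (C control, E exposed, followed by the day), with the group mean and 1 SD; open squares are slide 1 arrays. Exposed and control points overlap at each day for both pairs, and the slide 1 arrays hold the highest miR-27a minus miR-27b values of the day 3 groups (2.00 and 2.06).

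Each miRNA had 2 probes of 10 spots, all above background on the 33 arrays, and the 2 probes of a miRNA did not always give the same change. For miR-27b the dimmer probe (mean log2 signal 5.46, against 8.74 for the brighter) ran from 4.51 to 5.64 in the day 1 controls and from 5.41 to 6.13 in the exposed mice. Its change at day 1 was 0.56 ± 0.24 (unadjusted p = 0.0268, adjusted p = 0.353, limma), where the brighter probe gave 0.014 ± 0.11. For miR-23a the dimmer probe gave 0.16 ± 0.10 at day 1 and 0.23 ± 0.12 at day 3 (unadjusted p = 0.125 and 0.0567, adjusted p = 0.536 and 1.00, limma), where the brighter gave -0.11 and 0.033. For miR-23b the probes gave -0.21 and -0.16 at day 1, the same direction. At day 28 the changes from the probes of a miRNA lay within 0.15 of each other for all 5.

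Read through the dimmer probes, 3 of the 6 pair differences had an unadjusted p under 0.05. miR-23a minus miR-23b then differed between exposed and control by 0.33 at day 1 (n = 6 each, exact permutation p = 0.0216) and 0.32 at day 3 (n = 4 and 6, exact permutation p = 0.0333). miR-27a minus miR-27b differed by -0.36 at day 1 (n = 6 each, exact permutation p = 0.0281), and each of these had an adjusted p of 0.0667 over the 6 pair tests. The other 3 were 0.070 for miR-23 at day 28 (exact permutation p = 0.472), -0.15 for miR-27 at day 3 (exact permutation p = 0.590) and -0.10 for miR-27 at day 28 (exact permutation p = 0.636). Day 1 controls averaged 472 ± 288 signal units of brightness and the exposed arrays of that day 654 ± 95.6, and the part of brightness in the probe differences was not tested.

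**Figure D4:**
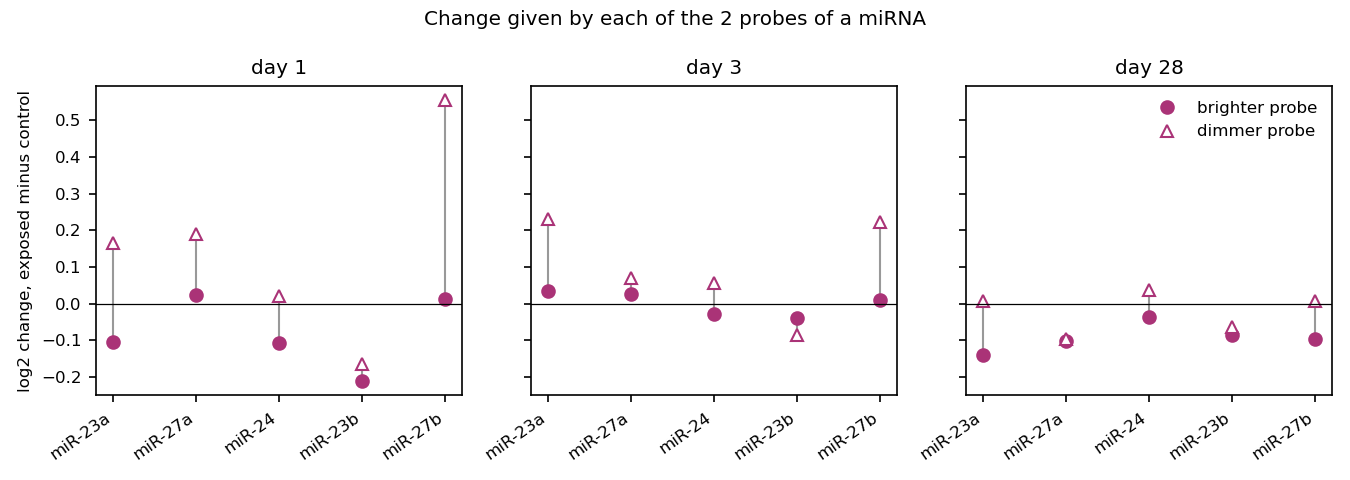
Log2 change, exposed minus control, given by the brighter probe (filled circle) and the dimmer probe (open triangle) of each miRNA at days 1, 3 and 28, with a line joining the probes of 1 miRNA. The widest gap is that of miR-27b at day 1 (0.014 and 0.56), and at day 28 every pair of probes lies within 0.15.

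The opposite arms of the same precursors were dim where they were measured. miR-24-1*, the other arm of the miR-24 hairpin of the miR-23b cluster, was above background on 32 arrays, and miR-24-2*, from the miR-23a cluster, on 28. Unlike miR-24 itself, they differ in sequence between the loci, but their first 16 bases, the seed in capitals included, are the same, and how much signal each probe drew from the other arm was not tested.
miR-24-1* (chr13:63301213-63301235): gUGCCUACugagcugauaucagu
miR-24-2* (chr8:84208839-84208860): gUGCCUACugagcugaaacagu
At day 1 miR-24-1* gave a log2 signal of 4.95 ± 0.47 in the controls and 4.79 ± 0.17 in the exposed mice (SD, n = 6 each), a change of -0.16 ± 0.16 (SE; adjusted p = 0.636, limma). miR-24-2* gave 3.83 ± 0.92 and 4.20 ± 0.63, a change of 0.37 ± 0.39 (adjusted p = 0.677, limma). Their changes at day 3 were -0.031 ± 0.18 and 0.18 ± 0.44, and at day 28 -0.072 ± 0.17 and -0.054 ± 0.41, with 0 of 2 called at any day. miR-27a* and miR-27b* were above background on 0 of 33 arrays, and the array held no entry named miR-23a* or miR-23b*.

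The 5 miRNAs varied little between mice of a group on the scale used here. The residual SD of log2 signal was 0.0995 for miR-24, 0.119 for miR-27a, 0.151 for miR-23a, 0.165 for miR-23b and 0.178 for miR-27b, ranks 1, 3, 9, 14 and 19 of 171 counted from the lowest, where the median of all was 0.281. Spots of 1 miRNA on 1 array had a median SD of 0.057 to 0.10. The low rank depended on the scale and the probe. In the authors' deposited value table the same miRNAs had residual SDs of 0.19 to 0.24, ranks 121 to 144, beside a median of 0.106. Values there ran from 5.21 to 13.40, with column medians of 5.41 to 5.43, close to the lowest value. How this bears on the ranks was not tested. Scaled to the 75th percentile of all probes the 5 miRNAs ranked 17 to 61, and with no scaling 17 to 76. On the dimmer probes they ranked 13 to 92, with miR-27b at a residual SD of 0.42, above the median of 0.388.

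Across the 33 arrays, correlations between the members' deviations from their group means are described with no test, because arrays share slides and the scaling. The highest Pearson r was between the paralogues miR-23a and miR-23b (0.72), followed by miR-23b and miR-24 (0.70), miR-23a and miR-27a (0.68), miR-23a and miR-24 (0.66) and miR-23b and miR-27a (0.64). For miR-27a and miR-24, products of the same cluster, it was 0.30. miR-27b had lower values, with r of -0.21 to miR-27a, -0.19 to miR-23a, 0.12 to miR-23b and 0.19 to miR-24. Over all pairs of the 94 miRNAs above background on every array, the median r was 0.094. Slide 1 held part of this: its 4 arrays averaged 0.20 above their group means for miR-23a and for miR-23b, 0.15 for miR-27a and 0.074 for miR-24, but 0.19 below for miR-27b. Without slide 1, r was highest for miR-24 with miR-23b (0.58) and with miR-23a (0.58), and it was 0.56 for miR-23a and miR-23b. For miR-27a it was 0.50 to miR-23a, 0.48 to miR-23b, 0.10 to miR-27b and 0.071 to miR-24. For miR-27b it was 0.47 to miR-23b, 0.41 to miR-24 and 0.091 to miR-23a. The low values of miR-27b to miR-23b and miR-24 thus rested on those 4 arrays.

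**Figure D5:**
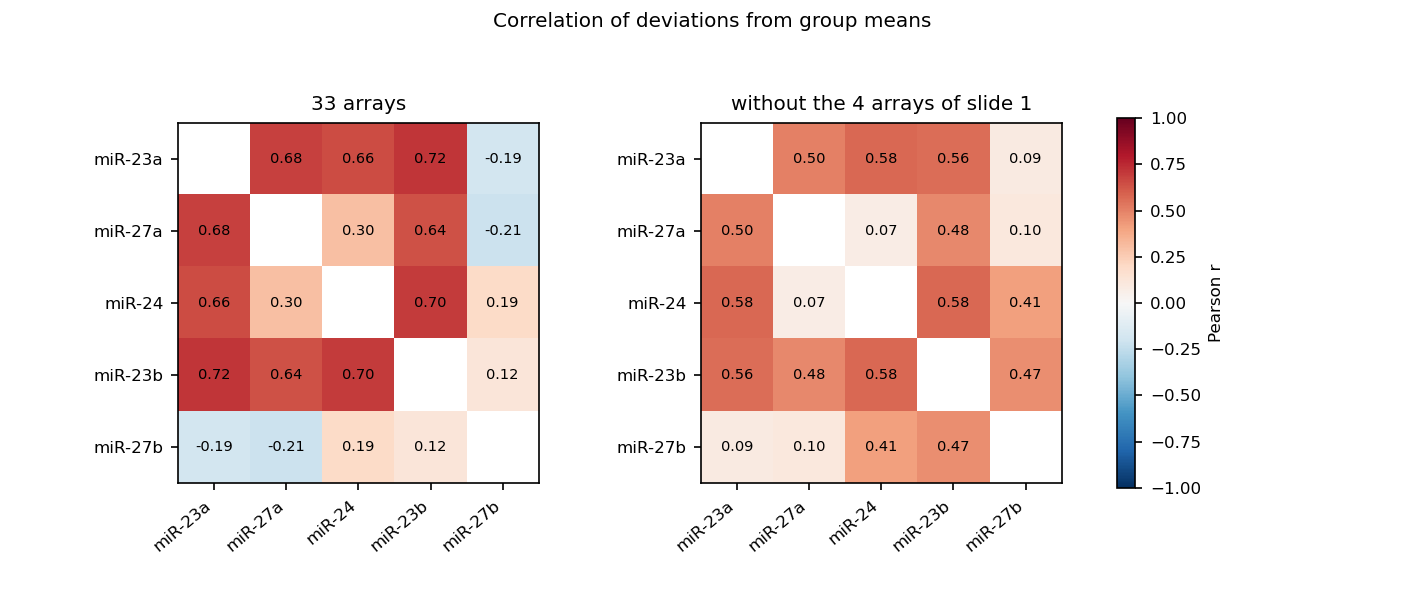
Pearson r between members of the log2 deviations from group means, over all 33 arrays (left) and without the 4 arrays of slide 1 (right), on a colour scale from -1 to 1. The pairing of miR-23a with miR-23b is 0.72 on the left and 0.56 on the right, and that of miR-23b with miR-27b goes from 0.12 to 0.47.

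By the same measure, the miRNAs most like each member among those 94 included other members for 3 of the 5. miR-23a was closest to miR-10a (0.77), miR-99a (0.73) and miR-23b (0.72), and miR-23b to miR-345-5p (0.77), miR-23a (0.72) and miR-24 (0.70). miR-24 was closest to miR-23b (0.70), miR-23a (0.66) and miR-99a (0.56). miR-27a was closest to miR-338-3p (0.73), miR-345-5p (0.72) and miR-15a (0.71), with miR-23a (0.68) and miR-23b (0.64) at ranks 4 and 5. miR-27b was closest to miR-16 (0.69), miR-200a (0.66) and miR-146a (0.60), with no member among them. Without slide 1, miR-10a gave 0.65 to miR-23a, miR-345-5p 0.60 to miR-23b and miR-338-3p 0.53 to miR-27a. miR-16 then gave 0.65 to miR-27b and miR-23b 0.58 to miR-24, and the ranks were not taken again.

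Endothelial-enriched and leukocyte miRNAs were read beside the members, since both clusters are known in endothelial cells. Of 4 endothelial-enriched miRNAs (miR-126-3p, miR-126-5p, miR-221 and miR-222), 0 were called at any day. miR-126-3p differed by -0.057 ± 0.097 at day 1 and -0.19 ± 0.10 at day 28, and miR-222 by 1.10 ± 0.31 at day 1 (adjusted p = 0.117, limma), with a signal above background on 15 arrays. At day 1 miR-221, above background on 33 arrays, differed by -0.045 ± 0.19, and miR-126-5p, on 23, by 0.35 ± 0.62. At day 3 all 4 were above 0, as were 65 of the 171 (adjusted p = 0.996 for each of the 4, limma). The day 3 changes were 0.0027 ± 0.11 for miR-126-3p, 0.42 ± 0.70 for miR-126-5p, 0.085 ± 0.22 for miR-221 and 0.49 ± 0.35 for miR-222. The day 28 changes of miR-221, miR-222 and miR-126-5p were -0.092 ± 0.20, -0.13 ± 0.33 and 0.25 ± 0.65. Of 3 myeloid miRNAs, 0 were called, with day 1 changes of 0.82 ± 0.21 for miR-223 (adjusted p = 0.0990, limma), 0.51 ± 0.31 for miR-142-3p and 0.43 ± 0.21 for miR-142-5p. In the same order their changes were 0.20 ± 0.24, 0.016 ± 0.34 and -0.19 ± 0.24 at day 3 and 0.12 ± 0.22, 0.35 ± 0.32 and 0.15 ± 0.22 at day 28. Whether these differences bear on the members was not tested.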

How the data were processed

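The deposited array files hold background-subtracted processed signal intensity per spot from Feature Extraction 10.7.3.1, per the file headers and the submitters' processing notes. The deposited value table is taken as log2 values because its columns correlate with log2 median signal at 0.978 to 0.990; its medians lie from 5.41 to 5.43, and the sources used here do not give the authors' normalization or floor. Spots with a feature outlier flag (2.30%) were left out. Probe means were scaled to a common 75th percentile of the 156 probes that every array detected, set to at least 1 and put on the log2 scale. A miRNA took its brightest probe and was above background where over 50 percent of a probe's spots were. It was tested if so on 4 arrays of a group, which all 5 members passed.

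Group means of the 33 arrays were fitted with limma 3.58.1 (R 4.3.3; intensity trend, Benjamini-Hochberg adjustment over 171 miRNAs within a contrast, threshold 0.05), and the scripts were tested on simulated data. Pair differences were tested by exact permutation over arrays, with intervals from inverting that test on a 0.005 grid. No spot was saturated, and the highest correlation between 2 arrays was 0.978. The number of arrays and the signal over background limit the precision; p-values measure the spread between these mice. No scaling, other scalings, other probes, slide blocks and single arrays left out were alternatives; normexp used the median signal, not the planned mean signal, with an offset of 50. Named miRNAs were the members, their opposite arms, the 3 most correlated miRNAs of each member and the marker lists. Members and lists were chosen with earlier results of these data known.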

Additional observations from a re-analysis of the deposited data

Results flagged for a closer look

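Among 42 groups of 4 to 6 values of the members and of the pair differences, 4 held 1 array that lay far from the others by Dixon's criterion at 95%, where chance gives about 1 in 20. miR-23a was 11.84 on replicate 3 of the exposed mice of day 1, a slide 1 array, with the next highest at 11.69. miR-23b was 10.75 on replicate 11 of the exposed mice of day 3, on slide 3, with the next at 10.65. miR-27b was 8.51 on replicate 4 of the exposed mice of day 3, on slide 1, with the next lowest at 8.91. miR-27a minus miR-27b was 2.06 on replicate 2 of the day 3 controls, on slide 1, with the next at 1.55.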

How the results depend on the processing

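Across the 16 alternatives besides leaving out arrays and the 33 arrays left out in turn, 0 of the 5 miRNAs were called for exposed against control at day 1, 3 or 28. The signs of these changes, none of them called, turned under several settings, and the cause was not tested. Log2 changes that turned sign under normexp were -0.033 for miR-27b at day 1 and, for control day 3 against day 1, 0.0025 (miR-23a) and 0.020 (miR-27a). Under the total gene signal miR-24 turned to 0.015 at day 3 and 0.045 at day 28. Under quantile normalization miR-23a turned to 0.045 and miR-24 to 0.010 at day 1, and miR-23a to -0.015 at day 3; for controls, day 3 against day 1, miR-23a, miR-23b and miR-24 turned to 0.051, 0.020 and 0.061, and for day 28 miR-24 to 0.012. Quantile normalization also turned miR-23a minus miR-23b at day 28 to 0.0096 and miR-27a minus miR-27b at days 1 and 3 to -0.032 and -0.028. With the 75th percentile over all probes miR-23a and miR-24 turned to 0.081 and 0.079 at day 1, and miR-23a, miR-27a and miR-27b to -0.0081, -0.014 and -0.030 at day 3. The control differences of miR-23a, miR-23b, miR-24 and miR-27a then turned to 0.22, 0.22, 0.22 and 0.25 (day 3) and 0.30, 0.24, 0.29 and 0.34 (day 28), where the median of all 171 miRNAs was 0.25 and 0.26.

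With no scaling the day 1 changes of miR-23a, miR-23b and miR-24 turned to 0.55, 0.45 and 0.55 (median of all miRNAs 0.57), and at day 3 miR-23a, miR-27a and miR-27b turned to -0.040, -0.046 and -0.062 (median -0.11). The control differences of miR-23a, miR-23b, miR-24 and miR-27a turned to 0.60, 0.61, 0.60 and 0.64 (day 3; median 0.64) and 1.06, 0.99, 1.04 and 1.09 (day 28; median 1.02), and 5 members were then called for control day 28 against day 1, where 142 of 171 miRNAs (83%) were, and 5 for the day 28 change against the day 1 change, where 119 of 171 (69.6%) were. In the deposited value table miR-27b turned to -0.035 at day 1 and miR-24 to 0.022 at day 3, and at day 28 miR-23a, miR-23b, miR-24 and miR-27a to 0.064, 0.15, 0.18 and 0.059. There, miR-27a minus miR-27b turned to -0.026 at day 3 and 0.064 at day 28. With the mean over probes miR-23a turned to 0.030 at day 1, miR-24 to 0.014 and 0.00058 at days 3 and 28, and miR-27a to 0.040 for control day 3. The pair difference of miR-23 then turned to 0.0078 at day 28, and that of miR-27 to -0.18 and -0.068 at days 1 and 3. With the dimmer probe miR-23a and miR-24 turned to 0.16 and 0.020 at day 1, miR-24 to 0.055 at day 3, and miR-23a, miR-24 and miR-27b to 0.0070, 0.039 and 0.0066 at day 28. The control differences turned to 0.037, 0.052 and 0.11 for miR-23a, miR-23b and miR-27a (day 3) and 0.063 and 0.073 for miR-23a and miR-27a (day 28). The pair of miR-23 turned to 0.070 at day 28 and that of miR-27 to -0.36 and -0.15 at days 1 and 3. At day 3 miR-23a and miR-27a turned to -0.042 and -0.021 with slide as a fixed block and to -0.013 and -0.0033 as a random block. Without slide 1, miR-23b and miR-24 turned to 0.041 and 0.029 at day 3 and the miR-27 pair to -0.027.

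Leaving out single arrays gave changes from -0.0087 to 0.057 (miR-27a) and -0.025 to 0.083 (miR-27b) at day 1. At day 3 they ran from -0.00078 to 0.098 (miR-23a), -0.073 to 0.030 (miR-23b), -0.063 to 0.0072 (miR-24), -0.013 to 0.082 (miR-27a) and -0.037 to 0.12 (miR-27b), and at day 28 from -0.17 to 0.0032 (miR-27b). Control day 3 differences ran from -0.15 to 0.0018 (miR-23b) and -0.087 to 0.0062 (miR-27a), and for control day 28 from 0 to 1 member was called. The miR-23 pair ran from -0.091 to 0.00086 at day 28, and the miR-27 pair from -0.064 to 0.068, -0.13 to 0.12 and -0.14 to 0.078 at days 1, 3 and 28. Without replicate 17 of the day 1 controls the miR-23 pair difference at day 1 was 0.16 (exact permutation p = 0.0260, adjusted p = 0.156). Over all 171 miRNAs, from 0 to 6 were called at day 1, 0 to 1 at day 3, 0 to 4 at day 28 and 0 to 142 for control day 28 against day 1 (11 in the chosen setting). Pair tests were not rerun for the filters, the variance trend or the slide blocks. No paired analysis was possible because the replicate numbers run through the series and each names 1 array; this concerns pairing by replicate number, and arrays that share a slide were compared within slides and with slide as a block. Signal over background limits the opposite arms of miR-24, which were above it on 32 and 28 arrays.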
